A study of Mus musculus with 11 samples.

Results

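The subunits of the oxidative phosphorylation machinery were followed in mouse liver as the probe sets of 1 microarray design, a probe set being a group of short probes against 1 transcript. Members were all probe sets whose platform gene symbol starts with Nduf, Uqcr, Cox4, Cox5, Cox6, Cox7, Cox8 or Atp5, or is Sdha, Sdhb, Sdhc, Sdhd or Cyc1. This gave 157 of 22690 probe sets, which stand for 85 of the 12393 genes named by a probe set with 1 symbol. By symbol, 33 genes belonged to complex I, 4 to complex II, 9 to complex III, 16 to complex IV and 17 to complex V. The other 6, Cox7a2l and 5 Ndufaf assembly factors, carry a member prefix without being counted to a complex. A further 8 probe sets that list a member beside other genes were left out, among them the one shared by Ndufb4, Ndufb4b and Ndufb4c.

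Livers of 3 groups of male mice on a mixed background were compared, with 1 array per mouse. Wild-type mice were given either a normal diet (CN, 3 mice), or a high-fat diet (CH, 4 mice). A further 4 mice of genotype DTG, which are Akt1 double transgenic, received the high-fat diet (DH). All 11 mice, the wild-type controls included, had received doxycycline for 3 weeks, and muscle hypertrophy is marked as present in the DTG mice alone. The labels give neither the promoter that drives Akt1, the second transgene, nor the age of the mice, and no transgenic mice on the normal diet were analysed here. The comparison of DH with CH therefore holds diet constant, that of CH with CN holds genotype constant, and that of DH with CN changes both. CH arrays enter the first 2 of these comparisons, DH arrays the first and the last, and CN arrays the last 2, so no pair of comparisons is independent.

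Oxidative phosphorylation takes place in the inner mitochondrial membrane. Complex I (NADH dehydrogenase) and complex II (succinate dehydrogenase) pass electrons from NADH and succinate to ubiquinone, complex III (the cytochrome bc1 complex) passes them on to cytochrome c, and complex IV (cytochrome c oxidase) passes them to oxygen. Complexes I, III and IV pump protons, and complex V (ATP synthase) uses the resulting gradient to make ATP. In liver this machinery supplies the ATP for gluconeogenesis and urea synthesis and reoxidises the cofactors reduced by fatty acid oxidation. Each complex other than complex II combines subunits encoded in the nucleus with subunits encoded in mitochondrial DNA; all members here are nuclear genes, and no probe set carried a symbol for a subunit encoded in mitochondrial DNA.

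Nuclear respiratory factor 1 (NRF1) and the ETS-family factor GABP are the textbook activators of many of these genes, so the sequence upstream of 4 members is shown: Ndufb6, the single member that passed the test below, Ndufb3 of the same arm of complex I, Atp5k of ATP synthase, and Sdha of complex II, whose brightest probe set overlapped between all groups while another separated the transgenic mice. Each is the 250 bases before the start of the gene, 5′ to 3′ on the gene's strand, from RefSeq on GRCm38.p6. The positions are chr4:40279422-40279671 (minus strand), chr1:58586147-58586396 (plus strand), chr5:108434400-108434649 (minus strand) and chr13:74350241-74350490 (minus strand). Capitals mark a match to the NRF1 motif GCGCANGCG or to the ETS motif CCGGAAG on either strand.
Ndufb6: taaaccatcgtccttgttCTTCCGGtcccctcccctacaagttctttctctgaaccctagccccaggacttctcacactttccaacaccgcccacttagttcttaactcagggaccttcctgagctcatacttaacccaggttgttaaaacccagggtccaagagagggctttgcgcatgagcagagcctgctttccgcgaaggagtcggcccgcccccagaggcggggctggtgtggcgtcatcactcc
Ndufb3: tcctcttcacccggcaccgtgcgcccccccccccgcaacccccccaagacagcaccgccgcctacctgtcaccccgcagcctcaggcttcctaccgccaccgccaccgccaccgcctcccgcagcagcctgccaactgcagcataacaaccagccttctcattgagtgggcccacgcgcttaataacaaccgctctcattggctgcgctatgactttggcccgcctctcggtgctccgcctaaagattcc
Atp5k: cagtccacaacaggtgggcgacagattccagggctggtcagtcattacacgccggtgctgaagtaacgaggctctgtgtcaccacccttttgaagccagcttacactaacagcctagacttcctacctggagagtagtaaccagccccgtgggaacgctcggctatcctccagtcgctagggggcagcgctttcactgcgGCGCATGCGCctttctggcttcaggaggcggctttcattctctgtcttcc
Sdha: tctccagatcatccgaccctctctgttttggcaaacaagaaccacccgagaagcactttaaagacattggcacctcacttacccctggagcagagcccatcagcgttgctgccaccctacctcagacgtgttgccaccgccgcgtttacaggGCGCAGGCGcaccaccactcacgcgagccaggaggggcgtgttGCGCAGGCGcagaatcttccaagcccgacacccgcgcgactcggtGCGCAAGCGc

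The Ndufb6 window held 1 ETS match, on the opposite strand and 232 bases before the start, and the Ndufb3 window held no match. In Atp5k 2 NRF1 matches, 1 on each strand and overlapping, began 50 and 49 bases before the start, and in Sdha 3 matches began 98, 55 and 10 bases before it. Windows of 300 bases, which add 50 bases after the start, were found for 70 of the 85 members. An NRF1 match lay in 18 of them (25.7%), against 14.9% of the 6493 tested genes with a window and 6.47% of all 27025 windows. The longer form of this motif, which ends in a further C, lay in 15 (21.4%, against 11.4% and 4.78%). An ETS match lay in 17 (24.3%), against 19.2% and 9.12%. The YY1 motif AAGATGGCG lay in 5 (7.14%, against 3.56% and 1.49%), namely Ndufa9, Ndufc1, Ndufs4, Ndufs7 and Atp5j2. The ERRA motif TCAAGGTCA lay in 2 (2.86%, against 0.293% and 0.407%), Atp5g3 and Sdhd, and TATAAA in 7 (10%, against 7.45% and 14.2%). Each motif was searched on both strands, and none of the 5 motifs contains another. Median GC content was 58.8% in the members' windows, 61% in those of tested genes and 52.7% in all, and its part in the shares was not tested. By complex the NRF1 match lay in 5 of 30 windows of complex I, 2 of 3 of complex II, 2 of 5 of complex III, 1 of 11 of complex IV and 6 of 15 of complex V. A match is a run of letters and does not show that the factor binds there.

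Values are MAS5 signals, a linear intensity whose trimmed mean is nearly the same on every array. Signals of different probe sets are not comparable as levels of RNA, so each probe set is compared only with itself across mice. Probe sets with the lowest 40% of mean log2 signal, below a signal of 53.0, were left out, and 141 of the 157 member probe sets passed. For each gene the brightest probe set stands for it, which gives 80 of the 85 members among 7924 genes tested. The 5 genes that did not pass were all of complex IV. Cox7a1 (9.1 to 52.9 across the 11 arrays) and Cox8b (7.2 to 61.2) are forms of heart and skeletal muscle. Cox4i2 (7.2 to 49.6) is found mainly in lung and Cox6b2 (25.3 to 84.3) in testis, while Cox7c is expressed in most tissues and had 2 probe sets, both below the limit. Cox6a2, the muscle form of that subunit, lay just inside the limit at 33.2 to 138, as did the assembly factor Ndufaf5 at 50.8 to 142. Differences are log2 differences with the standard error (SE) of the limma fit, and adjusted p-values are Benjamini-Hochberg values over all 7924 genes.

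The members were measured more tightly than most genes. Their median standard deviation (SD) between mice of a group was 0.10 on the log2 scale, against 0.24 over all tested genes. Of the 80, 68 lay in the brightest 10% of signals. The SD of other genes that bright was not taken, so the part of brightness in this gap was not tested. The same holds for the shares of members set against all genes below. The median SD was 0.11 in complex I, 0.097 in complex II, 0.10 in complex III, 0.095 in complex IV and 0.080 in complex V. After group means were removed, members hardly varied together from mouse to mouse: the median pairwise correlation was 0.037 over 3160 pairs from 11 arrays, 0.0088 for all genes and 0.058 for other genes of the brightest 10%. It was 0.22 within complex III and 0.19 within complex IV, and since the pairs share arrays and their scaling these are descriptions only.

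Transgenic arrays 3 and 4 stood apart from the other 9. Their highest signals were 42426 and 43273, against 27780 to 35450 elsewhere, and their mean rank correlation with the other arrays was 0.940 and 0.943, against 0.948 to 0.951. Array 3 also had a poly-A spike-in signal of 92.1, against 231 to 372, and the highest 3′ to 5′ Gapdh ratio, 0.823, against 0.669 to 0.768. Differences of named members at the brightest probe set were therefore also looked at without these 2 arrays. The value is given where it turns the sign of a difference or moves it by more than 1.5 times. For Uqcrb the turn of sign alone is given. The hepatocyte markers were all above the limit and high. Their summed signals were 100152 to 120570 in CN, 116523 to 133383 in CH and 119720 to 160081 in DH. Alb, Apoa1, Ttr and Cps1 read higher on transgenic arrays 3 and 4 than on any other array. Alb read 30532 and 31651 there, against 20218.5 to 24255.5 elsewhere. Cyp2e1 read above all other arrays on array 4 alone. Summed signals of the 7 Kupffer cell and macrophage markers were 2325 to 4405 in CN, 3326 to 7256 in CH and 3948 to 11007 in DH, and in DH against CN all 6 above the limit were higher, 1 of them past adjusted p 0.05 by limma. Endothelial sums were 2545 to 3143, 1943 to 2499 and 2215 to 3153, and stellate sums 5668 to 6013, 5527 to 9850 and 5540 to 7163. No bile duct, neutrophil, lymphocyte or adipocyte marker passed the limit on signal, and of 7 skeletal muscle markers only Atp2a1 did. The part of these cell types and of arrays 3 and 4 in the differences of the members was not tested, beyond the values without the arrays. In whole liver, fewer cells of a type and less RNA per cell cannot be told apart.

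In transgenic against wild-type mice on the same high-fat diet, most members were slightly lower in the transgenic mice, by a median of 0.10 on the log2 scale. The log2 difference was below 0 for 66 of 80 members (82.5%), against 49.8% of all genes tested, and the medians were -0.10 for the members and 0.0010 for all genes. All 5 complexes had a median below 0, and smaller classes included a median of -0.19 for the Ndufb subunits of complex I and of -0.15 for the ATP synthase subunits outside the catalytic head. Of single members, 1 fell past adjusted p 0.05 and none rose: Ndufb6, an accessory subunit of the membrane arm of complex I, which was 1.46-fold lower. Over all genes tested 0.366% passed in either direction, 0.139% lower and 0.227% higher. At an unadjusted p under 0.05, 18 members (22.5%) were lower and none was higher, against 6.74% lower and 6.95% higher over all genes. The 4 transgenic arrays lay wholly below the 4 wild-type high-fat arrays for 19 members (23.8%, against 4.09% of all genes) and wholly above them for none (against 4.32%). Those 19 were 10 subunits of complex I, 2 of complex III and 7 of complex V.

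**Figure D1:**
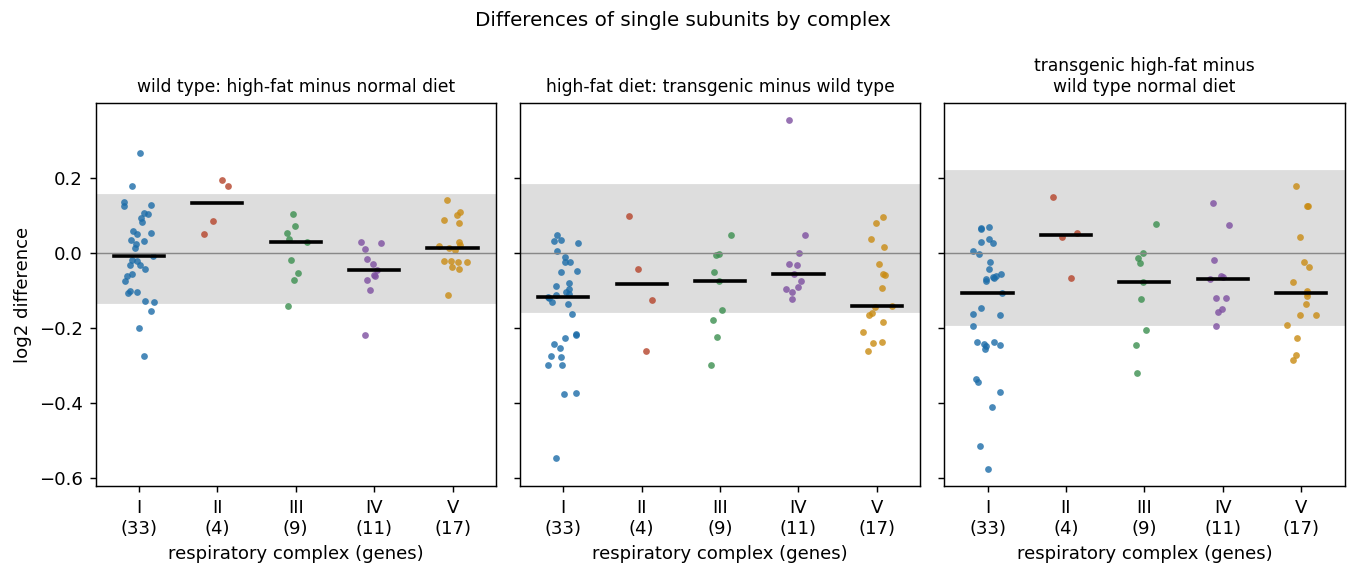
Log2 differences of the 74 subunits by complex in the 3 comparisons. Each point is 1 gene at its brightest probe set, black bars are medians, and the grey band is the range from the lower to the upper quartile of all 7924 genes tested. In transgenic against wild-type high-fat mice the medians of all 5 complexes lie below 0, at -0.058 to -0.14. In high-fat against normal diet the median of complex II is the highest, at 0.13.

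Of the 80 members, 59, 64, 51 and 52 lay below their normal-diet mean in the 4 transgenic mice, and 28 to 43 in the wild-type high-fat mice. Per mouse, the median deviation of the 80 members from the normal-diet mean was -0.082, -0.12, -0.061 and -0.059 in the 4 transgenic mice. It was 0.033, -0.0048, 0.028 and -0.0087 in the wild-type high-fat mice, and between -0.0044 and 0.0041 in the normal-diet mice. The transgenic values lay below all others. The same median over all tested genes was 0.013 ± 0.025 in the transgenic mice (SD, n = 4) and 0.016 ± 0.012 in the wild-type high-fat mice (SD, n = 4). Over the 724 other genes of the brightest 10% it was 0.041, -0.0029, 0.12 and 0.11 in the transgenic mice and 0.065, 0.0063, 0.086 and 0.054 in the wild-type high-fat mice. Transgenic arrays 3 and 4 were the highest of these 8, and array 2 was the lowest, as it was for the members. Without transgenic arrays 3 and 4 the members' median difference was -0.12, with 72 of 80 below 0, while the median over all genes was then 0.027 and 46.0% lay below 0.

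**Figure D2:**
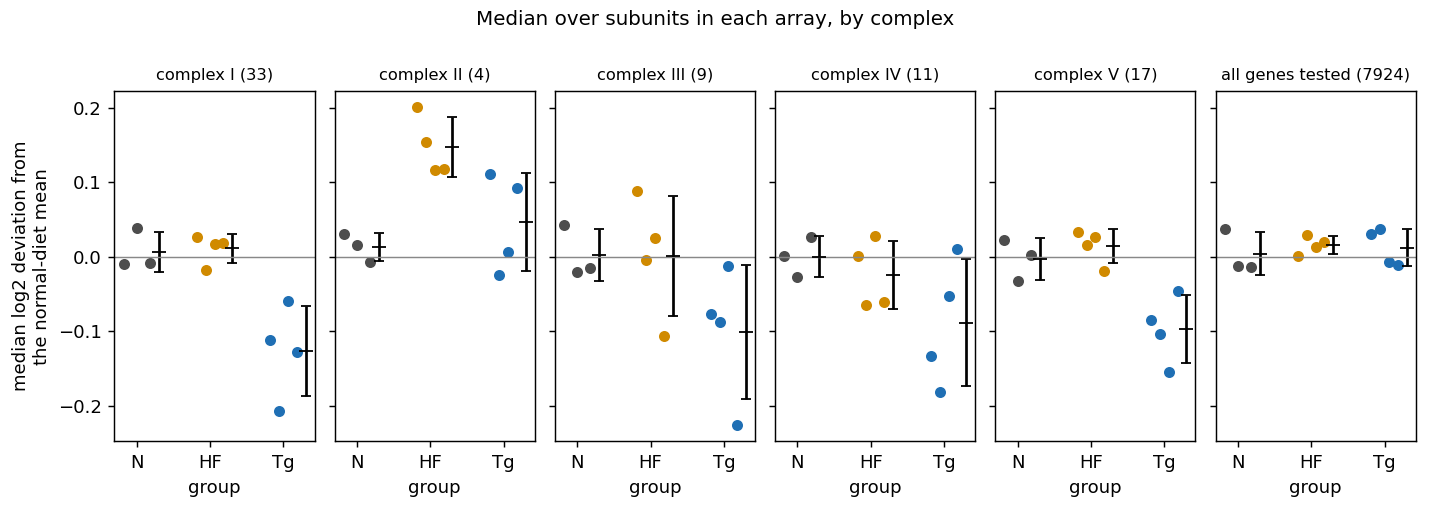
Median log2 deviation from the normal-diet mean per array, for each complex and for all genes tested. Each point is 1 mouse, and bars are the group mean ± SD (n = 3, 4 and 4). Complex I and complex V lie lower in every transgenic mouse than in any other mouse, and the all-gene medians of the 3 groups overlap.

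In complex I, 28 of 33 subunits lay below 0, with a median of -0.12. Arrays of the 2 groups did not overlap for 10 of them: Ndufb3, Ndufb6, Ndufb8, Ndufb9, Ndufb10, Ndufa2, Ndufa5, Ndufa10, Ndufs3 and Ndufs4. The median deviation per mouse was -0.11, -0.21, -0.059 and -0.13 in the transgenic mice, against 0.011 ± 0.019 (SD, n = 4) in the wild-type high-fat mice. The 10 Ndufb subunits, accessory proteins of the membrane arm, had a median of -0.19, with 8 of 10 below 0 and 5 of 10 not overlapping. The 6 core subunits of the matrix arm, which bind the flavin or the iron-sulphur clusters or lie near them, had a median of -0.11, and the other 17 accessory subunits -0.12.

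Signals of Ndufb6 were 4390.4, 4529 and 4426 in the normal-diet mice, 4743, 4322, 4278 and 4902 in the wild-type high-fat mice and 3354, 3264, 2903 and 2959 in the transgenic mice. The transgenic values all lay below the lowest value of either wild-type group, and the means were 3120.1 ± 223, 4561 ± 309 and 4449 ± 72 (SD) in DH, CH and CN. The log2 difference of DH from CH was -0.55 ± 0.083 (SE), with a 95% interval of -0.73 to -0.37 and an adjusted p of 0.0317 by limma. The call was lost when some arrays were left out: without CH array 1, 3 or 4, or without DH array 2, 3 or 4, the adjusted p was 0.0586 to 0.112, and without DH arrays 3 and 4 together it was 0.213 with a difference of -0.46. It was 0.0814 without the intensity trend and 0.0601 with only CH and DH in the fit, and ran from 0.0221 to 0.213 over all alternatives. A second Ndufb6 probe set gave 3462, 3638 and 3442 in the normal-diet mice, 3649.8, 3478, 3759 and 3384 in the wild-type high-fat mice and 3508, 3221, 3236 and 2910.2 in the transgenic mice. There the groups overlapped, and DH differed from CH by -0.15 ± 0.083, so the size of the Ndufb6 difference depended on the probe set. With the mean of both probe sets it was -0.35 (adjusted p = 0.0797).

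Ndufb3, Ndufb9, Ndufb10 and Ndufb8 are further accessory subunits of the membrane arm. Ndufb3 signals were 2139, 2301 and 2026 in the normal-diet mice, 2402, 2097, 2425 and 2500.2 in the wild-type high-fat mice and 1775, 1779, 2066 and 1659 in the transgenic mice. All transgenic values lay below the wild-type high-fat values, the highest of them, 2066, inside the normal-diet range, and the difference was -0.37 ± 0.096 (adjusted p = 0.118, limma). Ndufb9 signals were 9771, 10358 and 9978 in the normal-diet mice, 10206, 9551, 10426 and 10283 in the wild-type high-fat mice and 8395, 8065, 8543 and 8936 in the transgenic mice. The transgenic mice lay below every wild-type mouse on either diet, by -0.25 ± 0.071 against CH (adjusted p = 0.151). Ndufb10 differed by -0.30 ± 0.091 (adjusted p = 0.182) and Ndufb8 by -0.28 ± 0.10 (adjusted p = 0.266), both without overlap of DH and CH.

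**Figure D3:**
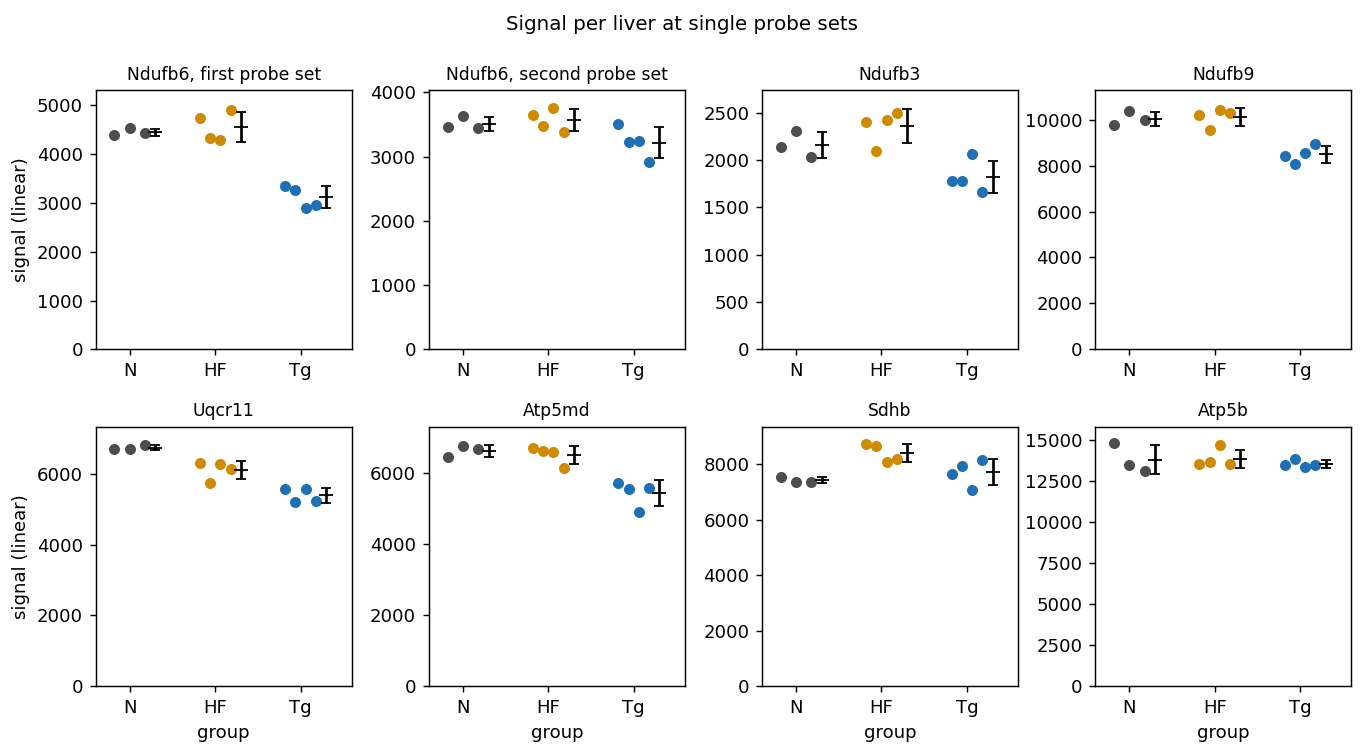
Signal on a linear axis from 0 for both probe sets of Ndufb6 and for Ndufb3, Ndufb9, Uqcr11, Atp5md, Sdhb and Atp5b. Each point is 1 mouse (N, normal diet; HF, wild-type high-fat; Tg, transgenic high-fat), and bars are the mean ± SD. Transgenic values lie below all wild-type values for the first Ndufb6 probe set, Ndufb9, Uqcr11 and Atp5md, and the 3 groups of Atp5b overlap.

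Outside the Ndufb subunits, Ndufa2 signals were 3477, 4005 and 4119 in the normal-diet mice, 3536, 3584, 3644 and 3621 in the wild-type high-fat mice and 3072, 2775, 3254 and 3069.9 in the transgenic mice. This accessory subunit lay lower in each transgenic mouse than in any wild-type mouse, and DH differed from CH by -0.24 ± 0.084 (adjusted p = 0.228, limma). Ndufa5 differed by -0.27 ± 0.10 (adjusted p = 0.25), also without overlap, and by -0.16 without DH arrays 3 and 4. Ndufa10 signals were 3878, 4404 and 4319 in the normal-diet mice, 5202, 5009, 4941 and 5011 in the wild-type high-fat mice and 4141, 4536, 4202 and 4347 in the transgenic mice, so that the wild-type high-fat mice lay above both other groups, and DH differed from CH by -0.23 ± 0.075 (adjusted p = 0.215). Of the core subunits, Ndufs8 differed by -0.30 ± 0.12, Ndufs1 by -0.11 ± 0.086, Ndufs3 by -0.12 ± 0.074 and Ndufv2 by -0.11 ± 0.082, none past the test, and only Ndufs3 did not overlap. Ndufv1, which binds NADH and the flavin, differed by -0.011 with a 95% interval of -0.19 to 0.17, and Ndufs7 by 0.030 ± 0.13. These 2 differences turned sign without DH arrays 3 and 4, to 0.027 and -0.11. Ndufv1 also had 2 further probe sets, of the same sign as the brightest, and the lowest value was -0.23. Ndufs8 depended on the probe set: its 5 further probe sets gave -0.065, -0.063, 0.11, 0.12 and 0.23, and the mean of all 6 gave 0.0056.

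Complex II links the chain to the citric acid cycle and is encoded in the nucleus alone. In DH against CH, 3 of its 4 subunits lay below 0 and no subunit separated the groups. Sdhc, a membrane anchor, gave 4112, 4364 and 4229 in the normal-diet mice, 5173, 5026, 4687 and 4523 in the wild-type high-fat mice and 4687, 3869, 3937 and 3746 in the transgenic mice. The highest transgenic value lay within the wild-type high-fat range, and DH differed from CH by -0.26 ± 0.090 (adjusted p = 0.228, limma). Sdhb, the iron-sulphur subunit, differed by -0.13 ± 0.074, the flavoprotein Sdha by -0.043 ± 0.083 and the second anchor Sdhd by 0.098 ± 0.088. Leaving out DH arrays 3 and 4 gave -0.081 for Sdha and 0.047 for Sdhd.

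In complex III, 8 of 9 subunits lay below 0 with a median of -0.074, and the groups did not overlap for Uqcr11 and Cyc1. Uqcrc1 and Uqcrc2 are the large core proteins on the matrix side. Uqcrc2 signals were 4710.4, 5191 and 4905 in the normal-diet mice, 5529, 5128, 5239.8 and 4619.9 in the wild-type high-fat mice and 4679, 4834, 3799 and 3479 in the transgenic mice. Transgenic mice 3 and 4 were lowest while mice 1 and 2 lay within the wild-type high-fat range, and DH differed from CH by -0.30 ± 0.11 (adjusted p = 0.268, limma). The difference was -0.11 without arrays 3 and 4 and -0.49 (adjusted p = 0.0449) without arrays 1 and 2. Uqcrc1 differed by -0.22 ± 0.090 (adjusted p = 0.296), and Cyc1, which carries haem c1, by -0.15 ± 0.076. Uqcrfs1, the Rieske iron-sulphur protein, differed by -0.052 ± 0.099. Uqcrc1 differed by -0.11 and Uqcrfs1 by -0.027 without DH arrays 3 and 4. The small subunit Uqcr11 gave 6706, 6704 and 6830.0 in the normal-diet mice, 6308, 5738, 6276 and 6138 in the wild-type high-fat mice and 5583, 5211, 5590.3 and 5226 in the transgenic mice. Its values stepped down from CN to CH to DH without overlap, and DH differed from CH by -0.18 ± 0.072 (adjusted p = 0.296).

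The complex IV median was -0.058, with 9 of 11 subunits below 0, none at an unadjusted p under 0.05 and none without overlap. That median was the value of Cox8c, a widely varying gene. Its SD within groups was 0.43 on the log2 scale, against a median of 0.095 in complex IV. The smallest adjusted p was 0.567, for Cox8a (-0.12 ± 0.089). Cox4i1, the liver form of the largest nuclear subunit, gave 12123, 11834 and 12404 in the normal-diet mice, 11747, 11258, 12088 and 11464 in the wild-type high-fat mice and 10704, 9981, 11594 and 11503 in the transgenic mice. The highest transgenic values lay within the wild-type high-fat range and below every normal-diet mouse, and the difference was -0.091 ± 0.075. Cox6c differed by -0.10 ± 0.076, Cox6b1 by -0.098 ± 0.080, Cox5a by -0.077 ± 0.10, Cox5b by 0.048 ± 0.12, Cox6a1 by -0.029 ± 0.074 and Cox7a2 by -0.032 ± 0.084. Ndufa4, once counted to complex I and now known as a subunit of complex IV, differed by -0.0011 ± 0.082. Several of these values moved without DH arrays 3 and 4. Cox8a then differed by -0.21, Cox4i1 by -0.17, Cox6b1 by -0.21, Cox7a2 by -0.11 and Ndufa4 by -0.070, while Cox5a and Cox5b turned sign, to 0.038 and -0.18. Cox5b signals were 10411, 10940.3 and 10927 in the normal-diet mice, 10995, 10553, 11273 and 10992 in the wild-type high-fat mice and 9379.5, 9936, 14013 and 12563 in the transgenic mice, so that transgenic mice 1 and 2 lay below every wild-type mouse and mice 3 and 4 above. Quantile normalization moved the complex IV median to -0.13, and leaving out transgenic arrays 3 and 4 moved it to -0.11.

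Complex V had a median of -0.14, with 13 of 17 subunits below 0. Without DH arrays 3 and 4 it was -0.10, when complexes I, III and IV had -0.15, -0.11 and -0.11. Arrays did not overlap for 7, namely Atp5md, Atp5j, Atp5k, Atp5l, Atp5e, Atp5h and Atp5j2. The 5 subunits of the F1 head, which holds the catalytic sites, had a median of -0.031, and the other 12, of the peripheral stalk, the rotor ring and the membrane part, had -0.15. That contrast between the subunit classes was not tested. Per transgenic mouse, the median deviation from the normal-diet mean was -0.125, -0.103, -0.048 and -0.029 for the head. For the other subunits it was -0.076, -0.104, -0.229 and -0.069. The head thus lay clearly above the others only in transgenic mice 3 and 4, and below them in mouse 1. Atp5md, a small subunit of the membrane part, gave 6427, 6746 and 6653 in the normal-diet mice, 6698, 6596, 6585 and 6141 in the wild-type high-fat mice and 5717, 5544, 4890.4 and 5572 in the transgenic mice. Every transgenic value lay below every wild-type value, and DH differed from CH by -0.26 ± 0.077 (adjusted p = 0.169, limma). Atp5j, a peripheral stalk subunit, gave 5974, 5551 and 6035 in the normal-diet mice, 5803, 6051, 5866 and 5890.0 in the wild-type high-fat mice and 5294, 4962, 4849.8 and 4906 in the transgenic mice. Again no transgenic value reached a wild-type value, and the difference was -0.24 ± 0.071 (adjusted p = 0.175). Atp5k and Atp5l, subunits e and g at the dimer interface, differed by -0.24 ± 0.091 (adjusted p = 0.276) and -0.19 ± 0.072 (adjusted p = 0.286), both without overlap.

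For the catalytic subunits DH and CH overlapped. Atp5b, the beta subunit, gave 14806, 13474 and 13123 in the normal-diet mice, 13571, 13639, 14680.1 and 13525 in the wild-type high-fat mice and 13506, 13874, 13334 and 13508 in the transgenic mice. No group stood high or low, with a difference of -0.031 ± 0.072 and a 95% interval of -0.19 to 0.13. Atp5a1, the alpha subunit, differed by 0.037 (-0.15 to 0.22), and the gamma subunit Atp5c1 by -0.057 ± 0.077. The 3 genes for the rotor ring subunit c, Atp5g1, Atp5g2 and Atp5g3, differed by 0.095 ± 0.080, -0.060 ± 0.073 and 0.015 ± 0.082. Without DH arrays 3 and 4 Atp5a1 and Atp5g3 turned sign, to -0.082 and -0.066, Atp5b differed by -0.016 and Atp5g1 by 0.049.

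**Figure D4:**
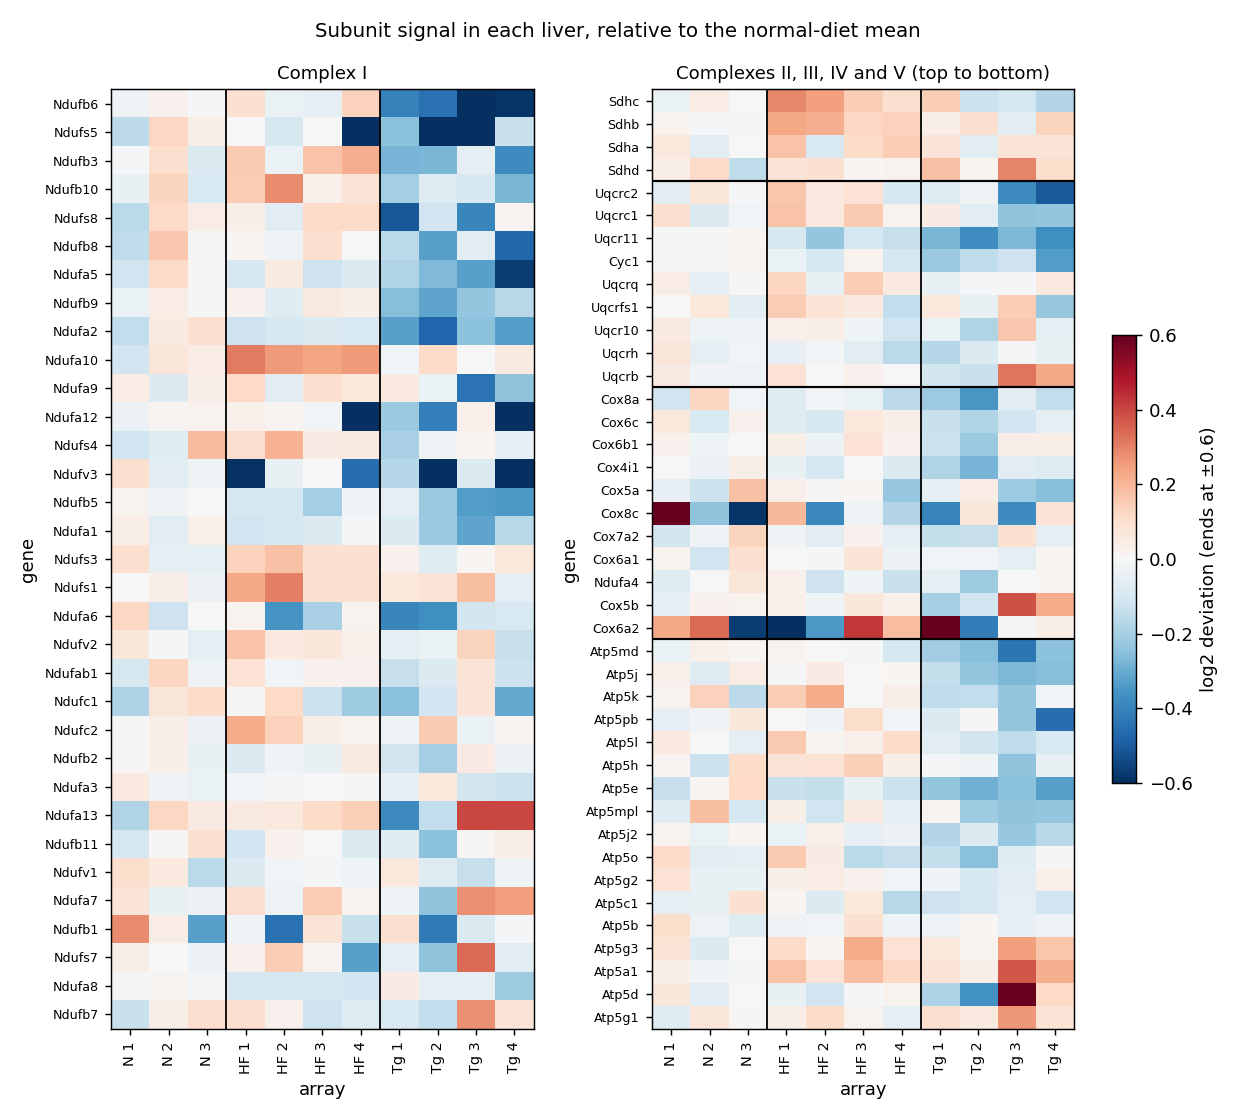
Log2 deviation from the normal-diet mean of each of the 74 subunits in each of the 11 arrays, grouped by complex (complex I on the left, complexes II to V on the right). Blue is lower, red is higher, and the colour scale ends at -0.6 and 0.6. Of all 80 members 51 to 64 lie below 0 in a transgenic column and 28 to 43 in a wild-type high-fat column, and the Ndufb6 row is blue in all 4 transgenic columns.

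High-fat against normal diet in wild-type mice left the members centred near 0. No member was past adjusted p 0.05 by limma, as was no gene of 7924 (0%). Of 80 members, 38 lay below 0 (47.5%, against 48.9%), and the median was 0.011, against 0.0067 over all genes. At an unadjusted p under 0.05, 3 members, Ndufa10, Sdhb and the assembly factor Ndufaf7, were higher (3.75%, against 3.92%) and none was lower (against 3.09%). The 4 high-fat arrays lay wholly above the 3 normal-diet arrays for 6 members (7.50%, against 4.58%), namely Ndufa10, Ndufs1, Sdhb, Sdhc, Atp5a1 and Ndufaf7, and wholly below them for 2 (2.50%, against 3.33%), Uqcr11 and Ndufa8.

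Complex II stood highest in this comparison, with all 4 subunits above 0 at their brightest probe sets and a median of 0.13. Complexes I, III, IV and V had medians of -0.0090, 0.028, -0.045 and 0.013. The second probe sets of Sdha and Sdhc gave 0.16 and 0.28, whereas that of Sdhd gave -0.34. Sdhb signals were 7558, 7379 and 7381 in the normal-diet mice, 8729.5, 8649.8, 8105 and 8197 in the wild-type high-fat mice and 7659.6, 7957, 7094 and 8171 in the transgenic mice. The high-fat mice all lay above the normal-diet mice, with the transgenic mice between 7094 and 8171, and CH differed from CN by 0.18 ± 0.080 (adjusted p = 0.693, limma). Sdhc also did not overlap (0.19 ± 0.097, adjusted p = 0.746), whereas Sdha (0.085 ± 0.090) and Sdhd (0.051 ± 0.095) did. Per mouse the complex II median was 0.147 ± 0.040 in CH, 0.047 ± 0.066 in DH and 0.014 ± 0.019 in CN (SD, n = 4, 4 and 3).

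Ndufa10 had the smallest p of the members here, with a difference of 0.27 ± 0.081 (adjusted p = 0.606, limma). Ndufs1, the largest core subunit of complex I, was higher without overlap by 0.18 ± 0.093, and Atp5a1 by 0.14 ± 0.092 at the brightest of its 3 probe sets. Ndufa10, Sdhb, Sdhc and Ndufs1 were highest on average in CH, with CN and DH overlapping, and both of their differences rest on the same 4 CH arrays. Per mouse, the median of the 6 core subunits of complex I was 0.086, 0.10, 0.078 and 0.061 in CH, 0.052, 0.019 and -0.045 in CN, and -0.014, -0.074, 0.073 and -0.039 in DH.

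Against wild-type mice on the normal diet, the transgenic mice had lower values for most members: 59 of 80 lay below 0 (73.8%, against 49.4%), with a median of -0.077, against 0.0041 over all genes. Ndufb6 was again the single member past adjusted p 0.05, 1.43-fold lower; over all genes 2.08% passed, 0.681% lower and 1.40% higher. Its difference was -0.51 ± 0.090, with an adjusted p of 0.0162 by limma. That p was 0.0512 to 0.0581 without CN array 1, 2 or 3 or DH array 4, and 0.109 without DH arrays 3 and 4. With the mean of both probe sets the difference was -0.32 (adjusted p = 0.0639), and over all alternatives the adjusted p was 0.0151 to 0.109. At an unadjusted p under 0.05, 17 members were lower (21.2%, against 8.35%) and 1, Ndufaf7, was higher (1.25%, against 9.96%). Arrays did not overlap for 16 members that were lower (20.0%, against 7.10%) and for 2 that were higher, Atp5a1 and Ndufaf7 (2.50%, against 8.46%). Without DH arrays 3 and 4 the members' median was -0.13 and 63 of 80 lay below 0.

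The complexes differed in this comparison as medians, with -0.11 in complex I (26 of 33 below 0), 0.047 in complex II (1 of 4), -0.077 in complex III (8 of 9), -0.070 in complex IV (9 of 11) and -0.11 in complex V (13 of 17). In complex II the second probe sets of Sdha, Sdhc and Sdhd had the opposite sign to the brightest, at -0.18, 0.10 and -0.014. Uqcr11 differed by -0.32 ± 0.077 (adjusted p = 0.057, limma), Ndufa2 by -0.34 ± 0.091 (adjusted p = 0.0752), Atp5md by -0.29 ± 0.084 (adjusted p = 0.102) and Ndufb9 by -0.24 ± 0.077 (adjusted p = 0.128), all without overlap. After quantile normalization Uqcr11 (adjusted p = 0.0364) and Ndufb9 (adjusted p = 0.034) passed as well. Ndufa5 (-0.34 ± 0.11), Atp5j (-0.23 ± 0.077), Cyc1 (-0.21 ± 0.082) and Atp5e, the epsilon subunit of the F1 head (-0.27 ± 0.085), also separated the groups. Ndufs5 differed by -0.58 ± 0.24, with groups that overlapped. Atp5a1 went the other way, with 10184, 9773 and 9888 in the normal-diet mice, 11185, 10549, 11293 and 10832 in the wild-type high-fat mice and 10525, 10188, 12872 and 11573 in the transgenic mice. At this brightest Atp5a1 probe set both high-fat groups lay above the normal-diet mice, by 0.14 ± 0.092 in CH and 0.18 ± 0.092 in DH (adjusted p = 0.333). Of its 2 further probe sets, 1 had the same sign in CH against CN and neither did in DH against CN. The lowest values among them were -0.40 and -0.35. Without DH arrays 3 and 4 the difference of DH from CN was 0.058 for the brightest Atp5a1 probe set and -0.22 for Ndufa5.

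Among the 80 genes, 41 had more than 1 probe set past the limit, with 61 probe sets besides the brightest. The further probe sets had the sign of the brightest one for 45 of 61 in DH against CH, 36 in DH against CN and 46 in CH against CN. Where signs disagreed with an unadjusted p under 0.05 at 1 of the probe sets, the genes were Ndufs8 and Uqcrb in DH against CH, and Ndufs4 and Uqcrb in DH against CN. Uqcrb, a subunit that contacts the ubiquinone site of complex III, gave 21262, 20229 and 20047 in the normal-diet mice, 21808, 20454, 20870.1 and 20536 in the wild-type high-fat mice and 18970.3, 18681, 25576 and 24039 in the transgenic mice at its brightest probe set. There DH differed from CH by 0.047 and from CN by 0.075. The transgenic mice split to either side of the wild-type mice, mice 3 and 4 high and mice 1 and 2 low. Without DH arrays 3 and 4 both differences at this probe set therefore fall below 0. At the other probe set the signals were 5067, 5706 and 4878 in the normal-diet mice, 5566, 5388, 5268 and 5503 in the wild-type high-fat mice and 3956, 4308, 4000.5 and 3464 in the transgenic mice. There all transgenic values lay below all wild-type values, and with every probe set fitted as its own feature DH differed from CH by -0.47 ± 0.089 (adjusted p = 0.0483, limma).

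Cox6c, a small subunit of complex IV, likewise had a second probe set with larger differences, at 4972, 4937 and 5088 in the normal-diet mice, 4696, 4150.1, 3980.5 and 4738 in the wild-type high-fat mice and 3135, 3961, 2292 and 3075 in the transgenic mice. Its transgenic values lay below all wild-type values, and in the same fit DH differed from CN by -0.71 ± 0.15 (adjusted p = 0.0364) and from CH by -0.52 ± 0.14 (adjusted p = 0.128). At the brightest Cox6c probe set these differences were -0.12 and -0.10. For Sdha a second probe set, whose suffix marks probes shared between transcripts, read 4329.8, 4048 and 4081 in the normal-diet mice, 4538, 4429, 4793 and 4752 in the wild-type high-fat mice and 3962, 3723, 3365 and 3624 in the transgenic mice. Its transgenic values lay below all wild-type values and differed from CH by -0.34 ± 0.080 (adjusted p = 0.0965), where the brightest gave -0.043. Which probe sets follow the transcript more closely was not tested.

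**Figure D5:**
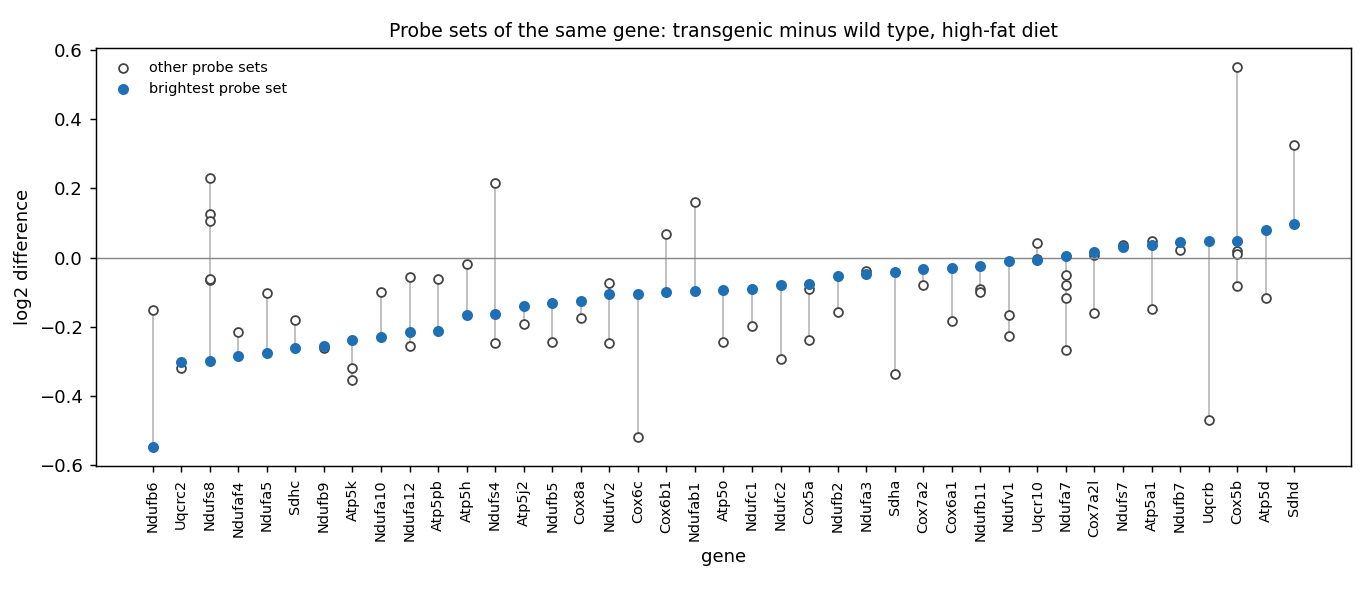
Log2 difference of transgenic from wild-type high-fat mice for the 41 genes with more than 1 probe set past the limit on signal. Filled points are the brightest probe set of each gene and open points the others. Of the 61 open points, 45 lie on the same side of 0 as the filled point of their gene, and wide gaps run in both directions. Uqcrb, Cox6c and Sdha have a further probe set well below the brightest, and Cox5b, Ndufs4 and Ndufb6 have 1 well above it. All 5 further probe sets of Ndufs8 lie well above its brightest.

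Other genes of the pathway were followed in lists by known function. In DH against CH no gene of any of these lists passed adjusted p 0.05 by limma. The 28 assembly factors had a median of -0.0024, with 14 below 0, and those of smallest p were the haem A synthase Cox15 (0.56 ± 0.19) and Surf1 (-0.21 ± 0.093), both factors of complex IV. The 18 electron carriers and exchange proteins had a median of -0.081, with 12 below 0, led by the ubiquinone synthesis genes Coq8a (-0.74 ± 0.30) and Coq7 (-0.28 ± 0.12). The 20 regulators had a median of -0.034, with the coactivator Ppargc1a at 0.82 ± 0.28 (adjusted p = 0.228) and the polymerase subunit Polg2 at -0.42 ± 0.20. The 74 mitochondrial ribosome genes had a median of -0.093, near the -0.10 of the members, and 50 lay below 0 (67.6%, against 49.8% of all genes tested). At an unadjusted p under 0.05, 10 of the 74 were lower and 2 higher, against 6.74% and 6.95% of all genes. Those of smallest p were Mrps36 (-0.42 ± 0.10, adjusted p = 0.111) and Mrps33 (-0.32 ± 0.10).

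In DH against CN 2 regulators passed the test. Yy1, a transcription factor with sites at some respiratory genes, was lower (-0.54 ± 0.11, adjusted p = 0.0362, limma), and Mterf2, a mitochondrial transcription termination factor, was higher (1.23 ± 0.23, adjusted p = 0.0214). Most of both differences lay already between the diets, where Yy1 differed by -0.41 ± 0.11 and Mterf2 by 1.19 ± 0.23, neither past the test, with the same CN arrays on one side of each. The list medians in DH against CN were 0.020 for assembly factors, -0.041 for carriers, -0.12 for regulators and -0.025 for the ribosome, with Mrps36 at -0.46 ± 0.11 (adjusted p = 0.0612), Mrpl51 at -0.31 ± 0.10, Coq8a at -1.02 ± 0.33, Coq9 at -0.35 ± 0.13, Cox15 at 0.45 ± 0.21 and Coa5 at -0.23 ± 0.10. In CH against CN they were 0.023, 0.040, -0.034 and 0.035, and no listed gene passed; smallest p-values were those of Tmem126a (0.16 ± 0.094) and Uqcc2 (0.20 ± 0.13), Coq7 (0.59 ± 0.13) and Coq6 (0.46 ± 0.18), and Mrpl45 (0.49 ± 0.13) and Mrpl40 (0.40 ± 0.12).

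Set against the promoter sequences, members with an NRF1 match had a median of -0.16 in DH against CH (18 genes) and those without had -0.085 (48 genes). With the longer form of the motif the medians were -0.11 (15 genes) and -0.096 (51 genes), so that gap depended on 1 base of the motif. With the shorter form they were 0.065 and -0.0058 in CH against CN, which shares the CH arrays, and -0.099 and -0.066 in DH against CN. For the ETS motif the medians were -0.16 (17 genes) and -0.077 (49 genes). The 5 members with the YY1 motif had -0.14, the 2 with the ERRA motif 0.057, and the 6 with TATAAA -0.021. These splits are descriptions of the members and were not tested.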

How the data were processed

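Liver RNA of 11 mice was measured on 11 arrays, primed from the poly-A tail and labelled with biotin, per the labels' protocols. The deposited values are linear intensity values, for which the submitters' processing notes name MAS5 as run by the authors; its version is not given in the sources used here. MAS5 treats 1 array at a time and scales it to a common mean (trimmed by 2% at each end: 500.251 to 500.285), which leaves the shape of the distribution free, and detection calls were not used here. Symbols came from the platform annotation: 20380 probe sets had 1 symbol, 691 several, 1555 none, and 64 were controls. No per-sample column was left unmapped.

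Signals were floored at 1 and log2 transformed, and the dimmest 40% of probe sets were left out. All 3 groups entered 1 fit with limma 3.58.1 in R 4.3.3 (lmFit, eBayes with an intensity trend), with Benjamini-Hochberg adjustment over 7924 genes and a threshold of 0.05. The fit was checked on simulated data. All p-values measure the spread between mice with 1 array each, and the number of arrays limits the precision. Promoter windows came from RefSeq (GRCm38.p6).

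Named were members past the threshold; in each comparison the members of smallest p (8 of complex I, 2 of II, 3 of III, 4 of IV and 4 of V); subunits listed by role; genes whose probe sets disagreed; and pathway genes past the threshold or with the 2 smallest p-values of their list. Any other gene named here was chosen after its values were seen. The members, lists and tests were chosen with earlier results of these data known. Alternatives covered the filter, floor, normalization, weights, choice of probe set, block and left-out arrays.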

Additional observations from a re-analysis of the deposited data

Results flagged for a closer look

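In groups of 4 mice, 1 array lay far from the other 3 (Dixon's test at the 95% level) in 5 of 116 groups looked at, and chance gives about 1 in 20. Atp5b read 14680 in wild-type high-fat mouse 3, against 13525 to 13639 in the others. Atp5e read 4719 in the same mouse, against 4410 to 4459. Atp5j2 read 9379 in wild-type high-fat mouse 2, against 8887 to 8962. Cox5a read 9427 in wild-type high-fat mouse 4, against 11092 to 11297. Sdha read 6711 in transgenic mouse 2, against 7418 to 7451. None of these genes passed the test in any comparison.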

How the results depend on the processing

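The median of the members lay below 0 in both comparisons of transgenic mice under all 25 alternatives to the settings above, between -0.12 and -0.080 against CH and between -0.13 and -0.062 against CN. In CH against CN it lay near 0 and changed sign under 2 of them, at -0.012 after quantile normalization and -0.011 with the mean of a gene's probe sets. No named member that passed the test changed direction. Leaving out each array in turn gave 0 to 1 members past adjusted p 0.05 against CH (Ndufb6, adjusted p = 0.0221 to 0.112) and 0 to 1 against CN. It moved the median of complex IV between -0.063 and -0.0025 in CH against CN, the latter without CN array 3, and that of the members between -0.097 and -0.074 in DH against CN, the former without DH array 3. Without DH arrays 3 and 4 the calls were 0 and 0, the complex V median was -0.10 against CH, and against CN the members' median was -0.13 and that of complex IV -0.16. Chosen after seeing the data, leaving out DH arrays 1 and 2 gave 2 and 2 members (Ndufb6 and Uqcrc2). Without the intensity trend 0 members passed against CH, and 0 with only the groups compared in the fit. Quantile normalization gave 3 members against CN (Ndufb6, Uqcr11 and Ndufb9), a members' median of -0.12 and complex IV medians of -0.13 against CH and -0.18 against CN. The 60% filter gave 2 against CN (Ndufb6 and Uqcr11). With all 141 probe sets as features, 68, 112 and 104 lay below 0 in CH against CN, DH against CH and DH against CN. There 2 passed against CH (Uqcrb and Ndufb6) and 2 against CN (Ndufb6 and Cox6c), and against CN the median was -0.11 and that of complex III -0.19. The mean of a gene's probe sets, also chosen after seeing the data, gave 0 against CH, where the complex II median was -0.16. Against CN it gave 1, Cox6c (adjusted p = 0.0474), with medians of -0.12 for the members, -0.15 for complex III and -0.14 for complex IV. The labels do not say what a replicate number marks, and the numbers were not taken to pair the samples, since not every pair was over 0.1. Deviations of same-numbered arrays correlated at 0.0842 to 0.292 in CH and DH, where each of the 8 arrays correlated best with its own number (a hint from the data, not the design), at -0.0721 to 0.0287 in CN and CH and at -0.0592 to 0.111 in CN and DH. With the number as a replicate block 0, 1 and 1 members passed in CH against CN, DH against CH and DH against CN, Ndufb6 with adjusted p = 0.0483 and 0.0391. For these counts of members past the test or below 0, the shares over all features under the same alternative are not given. The counts alone do not separate a change in the members from one over all features. Where no cause is given for a change with the setting, the cause was not tested.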
